A study of Homo sapiens with 32 samples.

Results

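The transcripts of 9 genes of blood clotting and its control were followed in Caco-2, a human colon adenocarcinoma line that serves as a model of the intestinal epithelium. The members were coagulation factor X (F10), factor V (F5), tissue factor (F3), tissue factor pathway inhibitor (TFPI), the 3 fibrinogen chains (FGA, FGB and FGG), α-1-antitrypsin (SERPINA1) and urokinase (PLAU). They were taken by symbol from the 60107 rows of the count table, and all 9 were among the 12849 genes that passed the filter on low counts. F10 and TFPI were selected on measured values, since F10 was higher and TFPI lower in HIF1A-null cells than in empty vector cells in earlier tests of these libraries. The values of those lines against each other are therefore a description and carry no test, and comparisons with unmodified cells share those same libraries.

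The study asked how loss of the hypoxia-inducible factor HIF1α changes the response of Caco-2 cells to the gut bacterium Faecalibacterium prausnitzii. WT cells were unmodified. Empty vector cells (e.v.) carried an inducible Cas9 and a guide vector without a guide, and cl.21, the Caco-2-HIF1A-null line, carried the same Cas9 and a guide against HIF1A. Both vectors were delivered by lentivirus and selected with antibiotics, so Cas9, vectors and selection cannot be told apart from other differences between these lines and WT. The cl.21 cells were 1 clone, whose own traits and the HIF1A edit cannot be told apart, and whether e.v. cells were also cloned is not given in the sources used here. Each line was grown in flat dishes (2D), in the HoxBan system without bacteria (monoculture) and in HoxBan co-culture, where oxygenated cells lie against anaerobic agar that holds F. prausnitzii strain A2-165. The HoxBan cultures of e.v. and cl.21 lasted 18 h. There were 3 libraries per group and 4 of WT in 2D, 28 in all. A further 4 WT libraries had no replicates and were labelled monoculture YCFAinul, monoculture YCFAmuc, Poop + YCFAinul and Poop + YCFAmuc. These labels appear to name bacterial medium with inulin or mucin and, for Poop, added stool. Libraries are numbered 1 to 32 as in their labels. Whether libraries of the same group were grown as separate cultures was not stated, and p-values then measure only the spread between libraries, which may be technical.

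Clotting starts when tissue factor on a cell surface binds factor VII and activates factor X. Factor Xa with its cofactor factor V turns prothrombin into thrombin, which cuts fibrinogen into fibrin, while TFPI blocks factor Xa and the tissue factor complex, and urokinase activates plasminogen to dissolve fibrin. Most of these proteins are made by the liver, and Caco-2 cells are known to make several liver secretory proteins.

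The libraries held 4144373 to 6686797 counts (median 4917010), and 4.49% to 23.6% of the counts lay in 37 mitochondrial genes. HIF1A, the targeted gene, held 145.96 ± 15.1 CPM in WT, 160.9 ± 17.0 in e.v. and 86.8 ± 3.8 in cl.21 in 2D (SD, n = 4, 3 and 3), a log2 fold change of -0.75 for cl.21 against WT (edgeR's quasi-likelihood test, adjusted p = 0.022). CPM are counts per 1000000 counts of the TMM-scaled library, and fold changes and adjusted p-values here and later come from this test. In monoculture and co-culture HIF1A was at 185.2 and 182.3 CPM in WT, at 257.6 and 275.6 in e.v. and at 176.2 and 171.7 in cl.21. Counts at the 3′ end do not show the edit itself, so these levels do not check the genotype. Of 13 intestinal epithelium markers, 11 passed the filter and summed to 3193 to 6714 CPM per library, whereas 7 platelet markers summed to at most 7.45 CPM. Endothelial KDR and TEK held 0 counts. The endothelial list summed to 3.55 to 20.0 CPM, the fibroblast list to 36.3 to 121 and the immune list to 9.56 to 52.1, with all e.v. groups at 28.9 or more. LYZ, on the immune list and also made by secretory epithelium, was higher in e.v. than in WT (log2 fold change 2.19 over the 3 cultures, adjusted p = 9.7e-08). Of the 11 tested epithelial markers 3 were lower in e.v. than in WT, among them SI (-1.06, adjusted p = 0.0011) and CDX2 (-0.57, 0.0053). In cl.21 4 were lower, among them FABP1 (-1.29, 0.0022), CDH17 (-0.48, 0.005) and CDH1 (-0.34, 0.016). Over all tested genes 6.92% were lower and 7.42% higher in e.v., and 6.71% lower and 7.61% higher in cl.21. Of 4 tested fibroblast markers, COL3A1 was higher in e.v. (1.70, 0.015) and cl.21 (1.91, 0.0054) and PDGFRA in e.v. (0.87, 0.0078), and ESAM of the endothelial list was higher in e.v. (1.01, 0.02). The part of these markers in the results was not tested.

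The 250 bases before the RefSeq transcription start are shown for F10 and TFPI, which ran in opposite order between e.v. and cl.21, and for FGA and FGB, fibrinogen chains that did not move together. Capitals mark matches to ACGTG or GCGTG, the core letters that hypoxia-inducible factors bind, or to CTGGGAA, a form of the acute-phase element, on either strand. In the GRCh38.p14 build the windows are chr13:113122549-113122798 on the plus strand for F10, chr2:187554436-187554685 on the minus strand for TFPI, chr4:154590743-154590992 on the minus strand for FGA and chr4:154562730-154562979 on the plus strand for FGB (the first of its 2 starts), each written 5′ to 3′ along the gene. The RefSeq start of TFPI lies inside its longer annotated span.
F10: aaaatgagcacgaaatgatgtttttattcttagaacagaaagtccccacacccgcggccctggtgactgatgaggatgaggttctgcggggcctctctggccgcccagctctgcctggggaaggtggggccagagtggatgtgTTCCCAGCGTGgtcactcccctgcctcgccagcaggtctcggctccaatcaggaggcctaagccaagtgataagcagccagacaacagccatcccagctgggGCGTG
TFPI: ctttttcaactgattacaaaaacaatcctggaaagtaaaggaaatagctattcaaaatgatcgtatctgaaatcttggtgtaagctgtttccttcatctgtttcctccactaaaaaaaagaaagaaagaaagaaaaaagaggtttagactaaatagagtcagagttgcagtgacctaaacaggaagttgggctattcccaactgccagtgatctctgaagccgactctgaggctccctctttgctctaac
FGA: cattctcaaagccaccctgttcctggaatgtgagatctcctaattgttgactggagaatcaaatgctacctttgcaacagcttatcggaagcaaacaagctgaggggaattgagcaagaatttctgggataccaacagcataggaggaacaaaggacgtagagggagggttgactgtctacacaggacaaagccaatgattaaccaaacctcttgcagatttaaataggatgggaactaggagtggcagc
FGB: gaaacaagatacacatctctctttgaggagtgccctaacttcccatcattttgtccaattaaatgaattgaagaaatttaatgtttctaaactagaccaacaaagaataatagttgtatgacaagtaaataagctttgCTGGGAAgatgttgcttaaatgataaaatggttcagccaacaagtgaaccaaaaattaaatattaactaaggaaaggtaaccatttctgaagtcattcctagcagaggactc

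The F10 window held GCGTG 101 and 5 bases before the start. It also held CTGGGAA on the opposite strand 107 bases before it, overlapping the first GCGTG by 1 base. The TFPI window held none of these motifs, and neither did those of F3 and F5. FGA held none either. FGB held CTGGGAA 112 bases before the start shown, and FGG, whose levels ran with those of FGA, held it 161 bases before its start. GCGTG lay on the opposite strand 15 bases before a SERPINA1 start and 113 before a PLAU start. Among 35116 RefSeq promoters of this length, 43.2% held ACGTG or GCGTG and 9.15% held CTGGGAA. The matches are letters in a window and not measured binding sites.

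F10 (ENSG00000126218, chromosome 13 from 113122814 to 113149529 in GENCODE release 29 on GRCh38) encodes factor X, the zymogen on which both starting routes of clotting converge. In 2D its 4 WT libraries held 18.8, 15.8, 21.5 and 22.2 CPM, the e.v. libraries 12.0, 16.5 and 14.6, and the cl.21 libraries 33.8, 44.7 and 34.2. In monoculture WT held 24.0, 33.8 and 18.5 CPM, e.v. 14.1, 12.1 and 10.0, and cl.21 31.7, 31.8 and 31.4. In co-culture WT held 27.6, 24.0 and 24.7 CPM, e.v. 8.17, 11.4 and 14.3, and cl.21 26.8, 43.4 and 35.8. Every cl.21 library was above every e.v. library, a separation that 21.2% of tested genes had in 2D, 12.5% in monoculture and 14.8% in co-culture, and WT lay between them by its mean in each culture. The log2 difference of cl.21 from e.v. was 1.39 in 2D, 1.38 in monoculture and 1.65 in co-culture. F10, selected on this comparison, was the 1 member of 9 past the threshold, and 0.957%, 1.07% and 1.1% of the tested genes were called. TFPI, selected on the same comparison, did not pass in any culture. Because both genes were chosen this way, nothing is read from that count.

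WT placed that difference on both sides. Comparisons with WT use the libraries on which F10 was selected, so their p-values are not independent of that choice. Averaged over the 3 cultures, F10 fell by 0.89 on the log2 scale in e.v. against WT (95% interval -1.16 to -0.63, adjusted p = 3.0e-05) and rose by 0.58 in cl.21 against WT (0.33 to 0.83, adjusted p = 0.0017). Within cultures, e.v. was lower than WT in monoculture (log2 fold change -1.06, adjusted p = 0.022) and co-culture (-1.17, 0.0083) and reached -0.44 in 2D (interval -0.87 to -0.01, adjusted p = 0.44). The monoculture call was lost without any 1 of e.v. libraries 15 and 25 and WT libraries 16 and 19 (adjusted p up to 0.144) and with only the compared groups analysed (0.308), and the co-culture call without e.v. library 14 (0.0716) and with only the compared groups (0.07). In cl.21 the rise against WT passed in 2D (0.95, adjusted p = 0.009) but not without cl.21 library 2 (0.113). It was 0.32 in monoculture (-0.12 to 0.76) and 0.48 in co-culture (0.03 to 0.92), neither past the threshold. In bulk libraries, fewer cells with a transcript and less of it per cell cannot be told apart. F10 shares its span with F10-AS1 and KARSP2, which held 5 and 32 counts against 3402 for F10 over the 28 libraries.

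TFPI (ENSG00000003436, chromosome 2 from 187464230 to 187565760) had the opposite order of e.v. and cl.21, and WT was lowest. In 2D WT held 10.1, 5.69, 19.8 and 4.44 CPM, e.v. 30.3, 48.8 and 34.8, and cl.21 20.1, 23.6 and 12.8. In monoculture WT held 3.63, 8.91 and 10.0 CPM, e.v. 43.3, 47.6 and 48.9, and cl.21 27.1, 18.0 and 20.2. In co-culture WT held 8.52, 11.7 and 12.5 CPM, e.v. 56.0, 68.5 and 56.1, and cl.21 26.8, 25.2 and 23.4. No e.v. library overlapped a cl.21 or WT library of any culture. WT and cl.21 overlapped in 2D and were separate in both HoxBan cultures. Of all tested genes, e.v. and WT were separate in 15.3%, 13.9% and 18% in the 3 cultures, and cl.21 and WT in 13%, 18.3% and 14.7%. The log2 difference of cl.21 from e.v. was -1.01, -1.09 and -1.26 in the 3 cultures, none past the threshold.

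**Figure D1:**
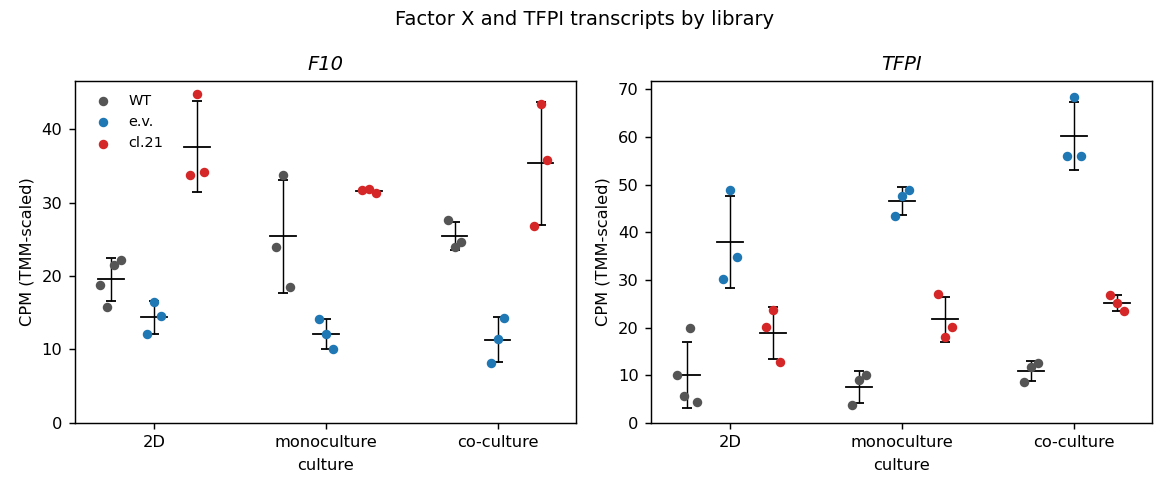
CPM of F10 and TFPI in each of the 28 libraries (points) by culture, for WT (grey), e.v. (blue) and cl.21 (red), with the mean and SD of each group in black. In every culture F10 ran from e.v. at 11.3 to 14.4 CPM through WT to cl.21 at 31.6 to 37.6, whereas TFPI ran from WT at 7.53 to 10.9 CPM through cl.21 to e.v. at 38.0 to 60.2.

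By their mean in each culture, both lines with Cas9 therefore held more TFPI transcript than the replicated WT libraries. The 4 WT libraries without replicates held 15.5 to 20.1 CPM, within the cl.21 range of 12.8 to 27.1. In e.v. the rise was 3.81-fold in 2D (log2 fold change 1.93, adjusted p = 0.0021), 6.24-fold in monoculture (2.64, 0.00044) and 5.53-fold in co-culture (2.47, 0.0009). The HoxBan calls held without any 1 library, and the 2D call was lost only when the compared groups were analysed alone (0.112). In cl.21 the rise passed in monoculture (1.55, adjusted p = 0.03), though not without any 1 of cl.21 libraries 4 and 24 and WT libraries 16 and 19 (up to 0.182) or with the compared groups alone (0.152). It was 0.92 in 2D (0.24 to 1.61, adjusted p = 0.25) and 1.21 in co-culture (0.44 to 1.98, adjusted p = 0.12). Over the 3 cultures the log2 fold change was 2.35 for e.v. (adjusted p = 2.4e-08) and 1.23 for cl.21 (0.00024). As for F10, p-values against WT are not independent of the selection of TFPI in these libraries. The smallest group count of TFPI was 108, in WT monoculture. The ratio of F10 to TFPI counts within a library was 0.146 to 0.418 in e.v., 1.00 to 2.67 in cl.21 and 1.08 to 6.60 in WT. The distance of cl.21 from e.v. in this ratio follows from how F10 and TFPI were chosen.

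F5 (ENSG00000198734, chromosome 1 from 169514166 to 169586588), the cofactor of factor Xa, was nearly absent from cl.21. In 2D the WT libraries held 19, 8, 27 and 14 counts, e.v. 8, 9 and 14, and cl.21 4, 6 and 1. In monoculture WT held 19, 21 and 15 counts, e.v. 10, 7 and 13, and cl.21 4, 0 and 5, where a count of 0 allows up to 3 (counting error only). In co-culture WT held 32, 9 and 16 counts, e.v. 8, 9 and 9, and cl.21 2, 2 and 1. No cl.21 library reached 1 CPM, and no e.v. or WT library was below it. Of all tested genes, cl.21 and WT were separate in 13%, 18.3% and 14.7% in the 3 cultures, and cl.21 and e.v. in 21.2%, 12.5% and 14.8%. Against WT, F5 fell in cl.21 by 2.51 (2D, adjusted p = 0.01), 2.70 (monoculture, 0.014) and 3.20 (co-culture, 0.012) on the log2 scale, and by 2.81 over the cultures (-3.50 to -2.11, adjusted p = 1.8e-06), which held without any 1 library. The 2D call was lost without cl.21 library 1 or 31 or WT library 12 (up to 0.0878), the monoculture call without cl.21 library 4 or WT library 19 (up to 0.0585) and the co-culture call without WT library 3 or cl.21 library 17 (up to 0.0836), and both HoxBan calls with the compared groups alone (0.155 and 0.0634). In e.v., F5 fell by 0.86 over the cultures (adjusted p = 0.034), a call lost without any 1 of libraries 3, 5, 12, 14, 15, 18, 19, 23 and 26 (up to 0.104). The log2 difference of cl.21 from e.v. was -1.72, -1.94 and -2.18.

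Counted over all members, e.v. against WT called 1 of 9 in 2D, 2 in monoculture and 2 in co-culture, where 1.21%, 1.11% and 1.73% of tested genes were called. For cl.21 against WT the counts were 2, 2 and 1, with 1.39%, 2.16% and 0.895% of tested genes. Over the 3 cultures, 4 of 9 members passed in e.v. (1 higher, 3 lower) and 5 in cl.21 (2 higher, 3 lower), and in each 14.3% of all tested genes passed, 7.42% higher and 6.92% lower in e.v., 7.61% higher and 6.71% lower in cl.21. The median log2 fold change of the members was 0.35 in e.v. and 0.17 in cl.21, and that of all tested genes was -0.02 and -0.01. Because F10 and TFPI were chosen for their difference between these lines, these shares are no test of the list.

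**Figure D2:**
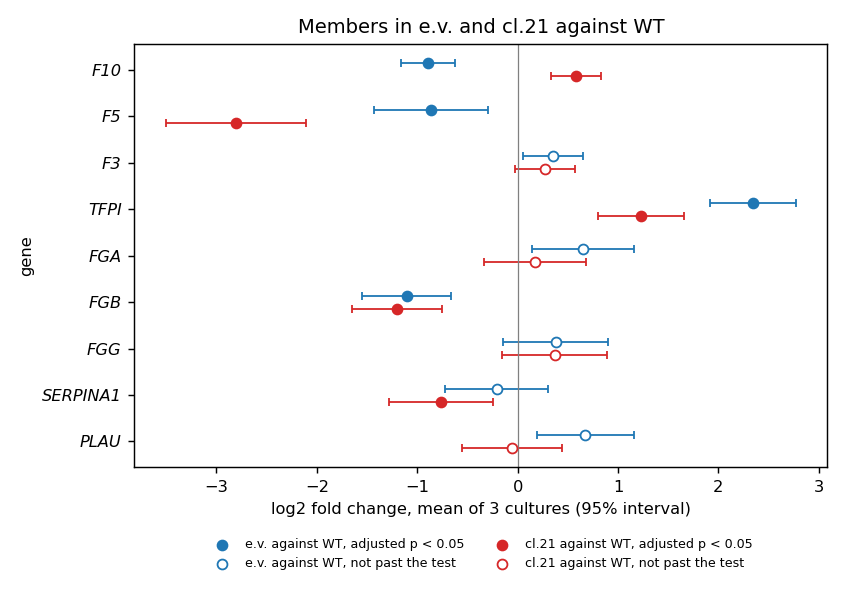
Log2 fold change of each member in e.v. (blue) and cl.21 (red) against WT, averaged over the 3 cultures, with 95% intervals. Filled points passed an adjusted p of 0.05. F10 lies at -0.89 and 0.58, TFPI at 2.35 and 1.23, F5 at -0.86 and -2.81, and FGB at -1.10 and -1.20.

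The neighbourhood of F10 was examined after its values were seen, and is given as a description. All 17 tested genes within 1 Mb of F10 had a log2 fold change below 0 in e.v. against WT over the cultures (median -0.43), and 6 passed the test: TUBGCP3, PCID2, CUL4A, GAS6, RASA3 and TFDP1. In cl.21 against WT, 15 of the 17 were above 0 (median 0.26), and GRTP1, DCUN1D2, TMCO3 and MCF2L-AS1 passed. Over all tested genes 6.92% were called lower in e.v. and 7.61% higher in cl.21. F7, the adjacent gene of factor VII, was at -0.42 in e.v. (adjusted p = 0.088) and 0.03 in cl.21 (0.93). Across chromosome 13, with 234 tested genes, the median was -0.23 in e.v. against WT, where 21.4% of the genes were above 0, and 0.10 in cl.21 against WT, the highest of 23 chromosomes. Between cl.21 and e.v. it was 0.27, 0.32 and 0.29 in the 3 cultures, again the highest each time. Against WT, 56 of the 234 chromosome 13 genes were called lower and 7 higher in e.v. In cl.21, 33 were called higher and 7 lower. Chromosome 15 had similar medians, at -0.14 in e.v. and 0.09 in cl.21 against WT. Between cl.21 and e.v. it was at 0.21, 0.26 and 0.26. The F10 values of -0.89 and 0.58 lay beyond these chromosome medians, and the part of chromosome 13 in the F10 result was not tested. Chromosome 2, which carries TFPI, had medians of 0.03 and 0.01, and of 4 tested genes near TFPI, FAM171B rose by 1.20 (adjusted p = 6.4e-06) and ITGAV by 0.35 (0.024) in e.v. against WT. In cl.21 against WT these were at 0.15 and -0.07, neither past the threshold, and GULP1 was the 1 neighbour that rose (0.42, adjusted p = 0.019).

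**Figure D3:**
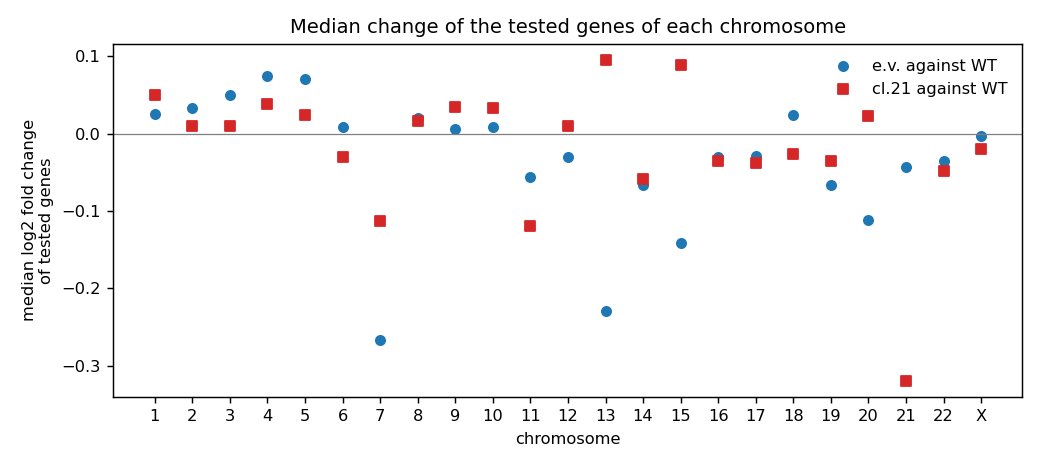
Median log2 fold change of the tested genes of each chromosome in e.v. (blue circles) and cl.21 (red squares) against WT, averaged over the 3 cultures. Chromosome 13, the place of F10, lies at -0.23 in e.v. and at 0.10 in cl.21, and the lowest values are -0.27 for chromosome 7 in e.v. and -0.32 for chromosome 21 in cl.21.

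The genes most like F10 over the 28 libraries, by Pearson's r of log2(CPM + 1) among 9951 genes with a mean of at least 5 CPM, were SNRPA1 (0.84), ABCC4 (0.835), HHAT (0.824), IPO5 (0.782) and MOB3B (0.776). ABCC4 and IPO5 also lie on chromosome 13, whereas SNRPA1 lies on chromosome 15, HHAT on 1 and MOB3B on 9. Those most like TFPI were TGFBR3 (0.893), RAB3B (0.893), PLCB4 (0.873), LIPH (0.869) and DTNA (0.853). The libraries share lines and cultures, so these values describe likeness over the same groups.

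The fibrinogen genes FGA, FGB and FGG (ENSG00000171560, ENSG00000171564 and ENSG00000171557) lie together on chromosome 4 between 154562956 and 154612967 and encode the chains that assemble into 1 protein. FGB set WT apart from both other lines. In 2D WT held 155, 165, 318 and 97.3 CPM of FGB, e.v. 90.1, 141 and 104, and cl.21 63.2, 96.0 and 109. In monoculture WT held 154, 323 and 255 CPM, e.v. 103, 98.8 and 79.9, and cl.21 108, 122 and 56.7. In co-culture WT held 148, 275 and 342 CPM, e.v. 94.1, 113 and 122, and cl.21 66.9, 137 and 126. In both HoxBan cultures every WT library was above every library of the other lines, and in 2D the groups overlapped. Of all tested genes, e.v. and WT were separate in 13.9% in monoculture and 18% in co-culture. For cl.21 and WT these shares were 18.3% and 14.7%. Over the cultures FGB fell by 1.10 in e.v. (-1.55 to -0.66, adjusted p = 0.0012) and by 1.20 in cl.21 (-1.65 to -0.76, adjusted p = 0.00049), calls that held without any 1 library. No single culture passed the threshold for FGB (adjusted p from 0.061 to 0.47).

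FGA and FGG did not share the lower level of FGB. FGA ranged over 39.2 to 156 CPM in WT (median 84.6), 97.4 to 217 in e.v. (121) and 45.3 to 132 in cl.21 (96.7), with log2 fold changes against WT of 0.65 in e.v. (0.14 to 1.16, adjusted p = 0.080) and 0.17 in cl.21 (-0.33 to 0.68, adjusted p = 0.70). FGG ranged over 80.9 to 291 CPM in WT (median 187), 108 to 314 in e.v. (287) and 141 to 346 in cl.21 (236), with log2 fold changes of 0.38 (-0.14 to 0.90, adjusted p = 0.34) and 0.37 (-0.15 to 0.89, adjusted p = 0.36). Within a library, FGB counts per FGA count were 1.51 to 4.92 in the 10 WT libraries (median 2.65), 0.647 to 1.01 in e.v. (0.841) and 0.866 to 1.28 in cl.21 (1.06), so neither line reached the lowest WT ratio. FGA per FGG count overlapped among the lines, at medians of 0.436, 0.451 and 0.375. Over the 28 libraries FGA and FGG had Pearson's r of 0.809 on log2(CPM + 1), while FGB had 0.141 with FGA and 0.244 with FGG. The 3 genes passed no comparison between cultures within a line.

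**Figure D4:**
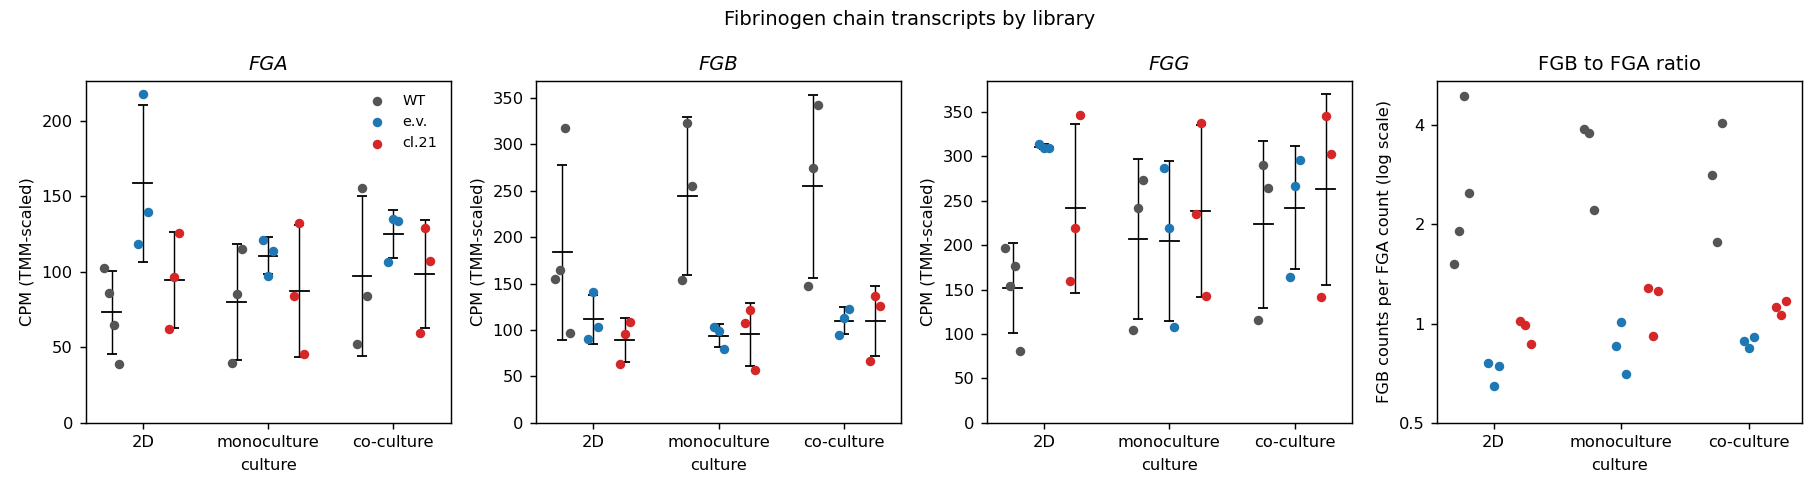
CPM of FGA, FGB and FGG in each of the 28 libraries by culture, with group mean and SD in black, and FGB counts per FGA count within each library on a log axis. The ratio lies at 1.51 to 4.92 in WT and at 0.647 to 1.28 in e.v. and cl.21.

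SERPINA1 (ENSG00000197249, chromosome 14 from 94376747 to 94390693) encodes α-1-antitrypsin, an inhibitor of neutrophil elastase and other serine proteases. It ranged over 124 to 385 CPM in WT (median 227), 88.3 to 316 in e.v. (204) and 95.7 to 168 in cl.21 (144), and the lines overlapped. It fell by 0.77 in cl.21 against WT over the cultures (-1.29 to -0.25, adjusted p = 0.044), but the call was lost without any 1 of 14 libraries of these lines (up to 0.115). In e.v. the log2 fold change was -0.21 (-0.72 to 0.31).

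F3 (ENSG00000117525, chromosome 1 from 94529225 to 94541800), the receptor that starts clotting, moved with culture. In 2D WT held 15.6, 15.8, 12.9 and 8.68 CPM, e.v. 14.2, 14.3 and 14.6, and cl.21 12.0, 16.1 and 16.7. In monoculture WT held 17.6, 14.8 and 21.9 CPM, e.v. 30.4, 29.2 and 18.9, and cl.21 24.8, 30.0 and 25.5. In co-culture WT held 8.93, 14.8 and 15.4 CPM, e.v. 24.7, 14.5 and 12.6, and cl.21 13.4, 14.3 and 14.0. Monoculture libraries were all above the 2D libraries in e.v. and cl.21 and overlapped them in WT. Such a separation was found for 37.5% and 38.4% of tested genes in e.v. and cl.21. F3 rose from 2D to monoculture in e.v. (0.87, adjusted p = 0.014) and cl.21 (0.84, adjusted p = 0.017), and was at 0.45 in WT (-0.04 to 0.93, adjusted p = 0.22). The e.v. call was lost without e.v. library 11 or 15 (up to 0.0634), and the cl.21 call without cl.21 library 1 or 7 (up to 0.0903). The difference of these changes between e.v. and WT was 0.42 (-0.29 to 1.13). From monoculture to co-culture F3 fell by 0.67 over the 3 lines (-0.98 to -0.37, adjusted p = 0.02), the 1 member called there beside 2.02% of tested genes. It was -0.48 in WT, -0.60 in e.v. and -0.94 in cl.21, none past the threshold within a line. The pooled call was lost without e.v. library 18 or 22 (up to 0.0648) and with the compared groups alone (0.0857).

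PLAU (ENSG00000122861, chromosome 10 from 73909177 to 73917497) was at the floor of detection. In 2D WT held 13, 11, 11 and 9 counts, e.v. 10, 11 and 6, and cl.21 3, 6 and 5. In monoculture WT held 6, 5 and 6 counts, e.v. 21, 12 and 5, and cl.21 14, 8 and 9. In co-culture WT held 5, 4 and 5 counts, e.v. 12, 12 and 6, and cl.21 8, 6 and 5. PLAU rose from 2D to monoculture in cl.21 (log2 fold change 1.50, adjusted p = 0.015), a call lost without cl.21 library 1 or 4 and without the filter on low counts (0.0688 and 0.0769). Its 2D and monoculture libraries did not overlap in cl.21 or WT, as for 38.4% and 25.9% of tested genes. In WT the same change was -0.77 (-1.58 to 0.05, adjusted p = 0.21), and in e.v. 0.82 (0.03 to 1.60, adjusted p = 0.13). C10orf55 overlaps PLAU on the other strand and held 16 counts against 234.

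Monoculture against 2D thus called 0 of 9 members in WT, 1 in e.v. and 2 in cl.21, where 14.7%, 21.5% and 20% of the tested genes were called. At an unadjusted p under 0.05 none of the 9 passed in WT, and DESeq2 also called 0 there. Co-culture against monoculture called 0 of the 12849 tested genes within any line by edgeR's quasi-likelihood test, with 542 genes in WT, 784 in e.v. and 911 in cl.21 at an unadjusted p under 0.05, and DESeq2 called 0, 0 and 4. Without the filter on low counts edgeR called 21, 25 and 30 genes, and with the mitochondrial share as a covariate 4 in cl.21. For F10 the co-culture difference was 0.01 in WT (-0.44 to 0.46), -0.10 in e.v. (-0.60 to 0.40) and 0.16 in cl.21 (-0.28 to 0.60). For TFPI it was 0.54 (-0.28 to 1.36), 0.37 (-0.31 to 1.05) and 0.20 (-0.52 to 0.92). The mean mitochondrial share was 7.60% to 9.47% in the 2D groups, 11.1% to 15.2% in monoculture and 15.0% to 16.3% in co-culture, and with it as a covariate F3 and PLAU passed in the same comparisons.

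**Figure D5:**
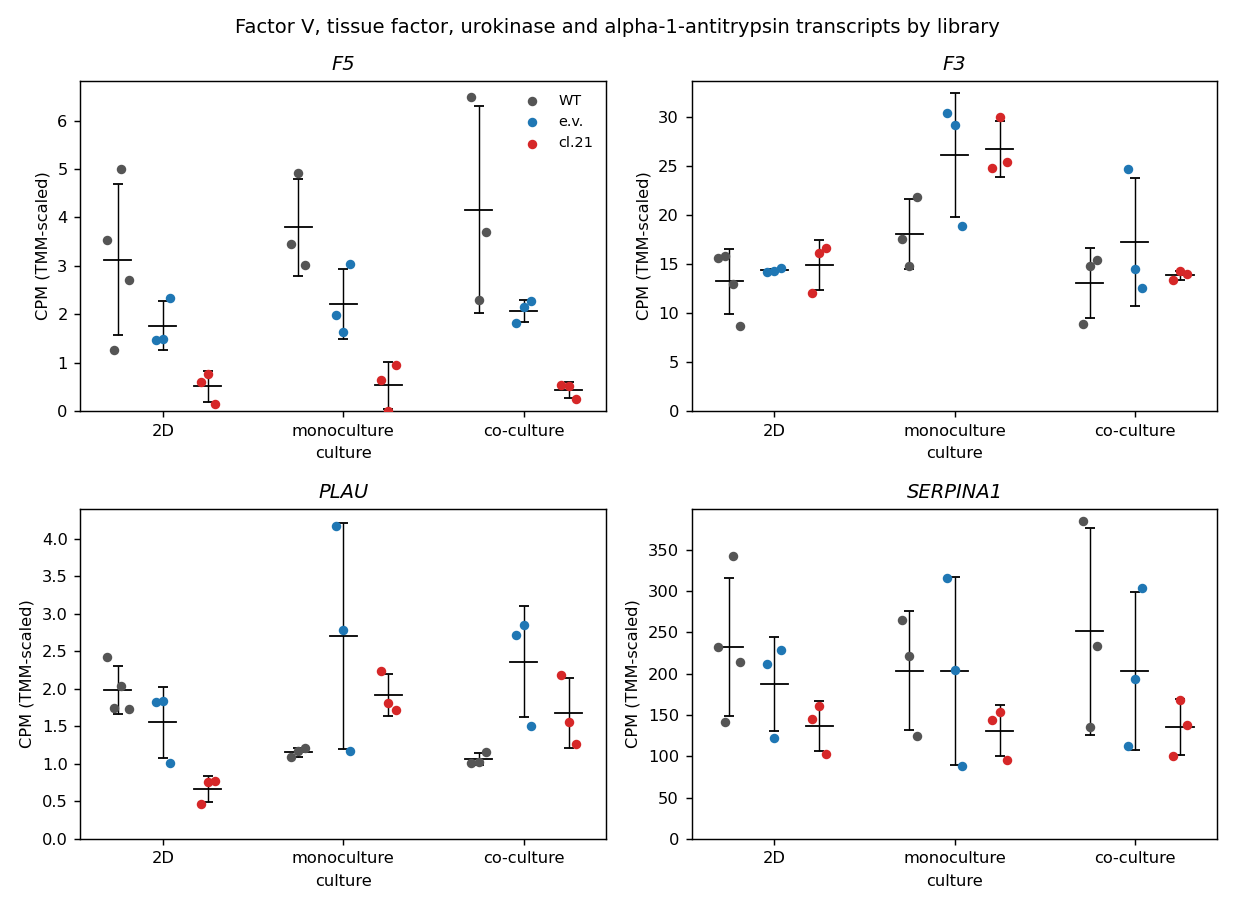
CPM of F5, F3, PLAU and SERPINA1 in each of the 28 libraries (points) by culture and line, with the mean and SD of each group in black. F5 stays under 1 CPM in all 9 cl.21 libraries, and F3 is highest in e.v. and cl.21 monoculture at 26.2 and 26.8 CPM.

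Other genes of the pathway were read from lists beside the members. Against WT over the 3 cultures, 7.42% of all tested genes were higher and 6.92% lower in e.v. For cl.21 these shares were 7.61% and 6.71%. Of 11 other clotting factors, F9, F11, F13A1 and F13B held 0 counts and 4 passed the filter. F2, the gene of prothrombin, fell from 70.2 CPM in WT to 39.4 in e.v. (log2 fold change -0.84, adjusted p = 0.0012) and to 35.0 in cl.21 (-1.01, 0.00016). F12, the contact factor, fell by 0.81 in e.v. (0.0007) and by 0.44 in cl.21 (0.045). None of the tested factors rose in either line. Of 8 tested inhibitors other than TFPI, e.v. had 1 higher and 1 lower, and cl.21 had 1 lower, which was PROS1 (protein S, a cofactor of TFPI and of protein C, -0.50, adjusted p = 0.0018). PROS1 also fell from 2D to monoculture in WT (-0.84, 0.0016), e.v. (-0.76, 0.0041) and cl.21 (-0.83, 0.0023). None of 5 tested fibrinolysis genes passed in either line over the cultures. From 2D to monoculture 3 of them rose in e.v., where 21.5% of all tested genes were called in either direction. Among the 3 was ANXA2, which helps activate plasminogen at the cell surface (0.62, adjusted p = 0.02). VKORC1, the vitamin K reductase that factor X and prothrombin need for their modified glutamates, rose with monoculture in WT (0.45, 0.042) and e.v. (0.98, 0.00011). Of the 6 genes of the vitamin K cycle and factor secretion, 1 was lower in each line against WT, VKORC1L1 in e.v. (-0.36, 0.0041) and VKORC1 in cl.21 (-0.27, 0.046). Neither of 2 tested protease-activated receptors passed against WT, and F2RL1 rose with monoculture in cl.21 (1.03, 0.0087).

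Liver genes outside clotting showed how far the fibrinogen and SERPINA1 values were shared. Of 15 tested liver secretory genes, e.v. had 2 higher and 1 lower than WT, and cl.21 2 higher and 6 lower, among them TTR (-0.70, adjusted p = 0.014) and VTN (-0.60, 0.0035). Over all tested genes 7.42% were higher and 6.92% lower in e.v., and 7.61% higher and 6.71% lower in cl.21. APOH, which binds phospholipid surfaces, was higher in e.v. (0.50, 0.0015), and RBP4, the retinol carrier, was lower in e.v. (-1.05, 0.0078) and cl.21 (-0.82, 0.034). Of 10 regulators of liver and acute-phase genes, STAT3 (0.57, 0.00035) and IL6ST (0.79, 0.0006), the signal chain of IL-6, were higher in e.v., and HNF4A (-0.49, 0.027) was lower. In cl.21 IL6ST was higher (0.52, 0.016). From 2D to monoculture FOXA1 fell in all 3 lines, by 0.93 in WT (adjusted p = 0.029), by 1.60 in e.v. (0.00052) and by 1.36 in cl.21 (0.0023). None of the 15 liver secretory genes passed in any line, where 14.7%, 21.5% and 20% of tested genes were called.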

How the data were processed

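RNA of Caco-2 cells was sequenced at the 3′ end of transcripts (QuantSeq), and the authors deposited 1 table of raw read counts per gene for 32 libraries. The submitters' processing notes name the build GRCh38. Not given in the sources used here were the aligner, the counter, its strand setting and its annotation. Of 60107 gene rows, 30677 held a count. Symbols came from an Ensembl table (56104) or GENCODE 29 (427), and 0.0679% of all counts fell in unnamed rows.

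Libraries were scaled by TMM over all 32. Genes passing filterByExpr in the 28 replicated libraries (12849) were fitted in 1 model of 9 groups (biological coefficient of variation 0.201, 19 residual degrees of freedom) with edgeR 4.0.16 (robust quasi-likelihood test, R 4.3.3), with Benjamini-Hochberg adjustment over all tested genes and a threshold of 0.05. Means over cultures or lines weight groups equally. Intervals are 95%. DESeq2 1.42.0, the edgeR exact test, no filter, upper-quartile factors, the mitochondrial share as a covariate, a fit of the compared groups alone and leaving out each library were alternatives. No library was a copy of another (lowest chi-square per degree of freedom 3.77).

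The members and gene lists were chosen with earlier results of these data known. Text names the members, HIF1A, up to 3 called genes per list and comparison with the smallest adjusted p and a mean of at least 5 CPM, and the 5 genes most correlated with F10 and with TFPI (pseudocount 1). Some items these rules select are not reported here. Genes near members and chromosome medians were added after values were seen. Depth was 4144373 to 6686797 counts, which leaves F5 and PLAU with counting error of the same order as their level. Promoters are from RefSeq on GRCh38.p14, and all 9 members matched.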

Additional observations from a re-analysis of the deposited data

Results flagged for a closer look

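PLAU changed from 2D to monoculture by 2.26 more on the log2 scale in cl.21 than in WT (95% interval 1.06 to 3.47). Every WT monoculture library lay below every WT 2D library and every cl.21 monoculture library above every cl.21 2D library, on 3 to 14 counts each, a separation that 25.9% of tested genes had in WT and 38.4% in cl.21. By edgeR's quasi-likelihood test the unadjusted p of this difference was 0.00062 and the adjusted p was 1.0, and 0 genes passed the adjusted threshold, with 523 at an unadjusted p under 0.05. DESeq2 also called 0, and without the filter on low counts edgeR called 31. In e.v. the PLAU change also exceeded that in WT, by 1.58 (0.45 to 2.71). Between cl.21 and e.v. the changes differed by 0.68 (-0.49 to 1.86). Neither difference passed the adjusted threshold.

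The 4 WT libraries without replicates lay above the WT monoculture libraries for TFPI and PLAU. TFPI was at 15.5 CPM in the library labelled monoculture YCFAinul, 16.1 in monoculture YCFAmuc, 20.1 in Poop + YCFAinul and 17.8 in Poop + YCFAmuc, against 3.63 to 10.0 in WT monoculture and at most 19.8 in any of the 10 replicated WT libraries. PLAU was at 4.02, 4.93, 3.40 and 3.28 CPM in the same order, on 21, 22, 19 and 14 counts, against 1.09 to 1.20 in WT monoculture and at most 2.42 in any replicated WT library. All 4 TFPI values lay within the cl.21 range of 12.8 to 27.1 CPM. The differences from WT monoculture were not tested, since each condition had 1 library. The other 7 members were not above the WT monoculture libraries in all 4.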

How the results depend on the processing

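Over 398 settings for the members called in a comparison, 342 kept the call, 56 lost it and none changed sign. Over the 3 cultures, the other settings called 4 to 6 members in e.v. and 5 to 6 in cl.21 against WT. Leaving out 1 library at a time gave 1 to 1 members called for e.v. against WT in 2D, 1 to 2 in monoculture and 1 to 2 in co-culture, and for cl.21 against WT 1 to 2, 0 to 2 and 0 to 1. It gave 0 to 2 for monoculture against 2D in e.v. and in cl.21, 0 to 1 for co-culture against monoculture over the lines, and 3 to 5 in e.v. and 4 to 5 in cl.21 over the cultures. Without the filter on low counts, 4 members were called in e.v. against WT in 2D, 6, 4 and 4 in cl.21 against WT in the 3 cultures, 3, 2 and 2 in cl.21 against e.v., and 2 in e.v. and 1 in cl.21 for monoculture against 2D. With only the compared groups analysed, 0, 1 and 1 were called in e.v. against WT, 0 and 0 in cl.21 against WT in monoculture and co-culture, 2, 0 and 2 in cl.21 against e.v., and 0 for co-culture against monoculture over the lines. In co-culture DESeq2 and the mitochondrial covariate each called 2 in cl.21 against WT and 2 in cl.21 against e.v., and the edgeR exact test called 2 in the latter. Counts for cl.21 against e.v. bear on nothing here, since F10 and TFPI were selected on that comparison. The cause of these shifts was not tested. No paired analysis was possible, because the labels number the libraries in a single run and do not say which were grown together. Comparisons within 1 culture rest on 3 libraries a group (4 of WT in 2D), and F5 and PLAU on few counts. Levels are at the 3′ end, so count ratios between genes were compared only among lines. They do not give the relative abundance of different transcripts. Protein and activity were not measured here.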
